A study of Mus musculus with 6 samples.

Results

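Chemokine transcripts of C2C12 myotubes were followed on 6 bead arrays after transfection with scramble siRNA or with an siRNA against *Dj1*. The genes were 10 chemokines (CXCL10, CXCL1, CXCL5, CXCL12, CCL2, CCL5, CCL7, CCL8, CCL9 and CX3CL1), spelled here in capitals like every gene name in the array file. They were chosen by name, with the DJ-1 siRNA against scramble signals of these same arrays already known, and a row was kept where its target name, ignoring case, was one of them. This gave 14 probes of 8 genes, among 45281 probes and 30854 target names in all. CXCL5 and CCL8 were not analysed here. Since the choice used this contrast, the values of these genes are given as a description, with no p, and the number that the array-wide fit called is given only beside its share over all probes.

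C2C12 is an established mouse myoblast line whose cells fuse into multinucleated myotubes once serum is lowered. Myoblasts received 60 nM of scramble siRNA or of DJ-1 siRNA, were moved to differentiation medium after 48 h and were used after 4 days in it. Each group held 3 arrays, numbered 1 to 3, and the labels do not state whether these were separate cultures, so p-values cover only the spread between these samples. All comparisons rest on 1 siRNA per group, and an untransfected group was not analysed here. Median signal was 162.2, 167.4 and 153.5 after scramble siRNA, against 161.0, 166.9 and 152.3 after DJ-1 siRNA. A probe counted as detected on an array at a detection p under 0.05, which 16985, 17399 and 18179 probes reached after scramble siRNA, against 18704, 18857 and 18408 after DJ-1 siRNA. The median standard error over the beads of a probe was 11.3, 8.30 and 8.66 after scramble siRNA, against 7.17, 6.36 and 5.88 after DJ-1 siRNA. Every scramble array was thus noisier and had fewer detected probes than any DJ-1 siRNA array, and the part of this in the differences given here was not tested.

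Chemokines are small secreted proteins that bind G protein-coupled receptors and guide the movement of leukocytes along gradients. They are grouped by the spacing of their conserved cysteines into CC, CXC and CX3C families, and many are induced by interferons or by NF-kappaB. Skeletal muscle cells release several of them, and in injured muscle they take part in the recruitment of monocytes and neutrophils.

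The targeted gene was examined before any chemokine. *Dj1*, which encodes a redox-sensitive protein and is listed as PARK7, had a signal of 12020, 10900 and 12251 after scramble siRNA, against 5935, 6586 and 4234 after DJ-1 siRNA. The groups did not overlap, and normalized signal on the log2 scale was 13.53 ± 0.14 (SD, n = 3) in scramble and 12.37 ± 0.19 (SD, n = 3) in *Dj1* knockdown myotubes. The log2 difference of -1.16 (standard error 0.14, adjusted p = 0.00344 from limma) leaves 44.7% of the scramble level.

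Markers were read to see which cells the RNA came from. Of 10 myotube genes 9 had a row, and 18 of their 23 probes were detected on at least 3 arrays, among them the skeletal actin ACTA1, the embryonic myosin MYH3, the creatine kinase CKM and myogenin (MYOG). No probe of these 4 genes was called, while 9 probes of the list were called lower and 2 higher, where called means an adjusted p under 0.05 over all tested probes, of which 30.1% were called, 13.6% lower and 16.5% higher. The 9 lower became 4 in the unmoderated test, 4 when replicate 1 of the knockdown arrays was left out and 3 when their replicate 3 was, where the calls of TNNT3, ACTN2 and 3 TTN probes ended. The adult fast myosin MYH1 had log2 differences of -2.19 and -1.93 on its probes (standard errors 0.21 and 0.20, adjusted p of 0.00284 and 0.00304 from limma) and the intermediate filament gene DES fell by 0.56 log2 units (standard error 0.09, adjusted p = 0.0076), the latter not called, at -0.32, when arrays were shifted to a common 75th percentile. Probes of titin (TTN) went both ways, 3 of the 7 tested being called lower and 2 higher (1 of these, ILMN_2744368, detected on 1 scramble array and every knockdown array), of which 4 lost their call without DJ-1 siRNA replicate 3 (adjusted p up to 0.0896), while leaving out any other array ended at least 1 of these calls (adjusted p up to 0.1). The knockdown arrays of ILMN_2744368 were enough for it to be tested, so nothing is read from its call. The summed normalized signal of the 18 probes, of which the brightest was that of ACTA1, was 149100, 144100 and 141300 after scramble siRNA, against 113200, 121100 and 103500 after DJ-1 siRNA.

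Leukocytes are a usual source of chemokines in muscle tissue, and their marker genes were near background. No probe of PTPRC, CSF1R, ITGAM or FCGR1 was detected on any array, and 2 of the 19 probes of the list were tested. These were CD68 and LYZ, whose probe matched Lyz1 in RefSeq. CD68 was detected on 1 array after scramble and 3 after knockdown, and LYZ, the brightest, on 3 and 1, with a log2 difference of -0.83 (standard error 0.18, adjusted p = 0.0162 from limma) that lost its call in the unmoderated test and when DJ-1 siRNA replicate 1 or 3 was left out (adjusted p of 0.0624 and 0.054), and was as small as -0.24 without background correction. CD68, at 0.52, was called without scramble replicate 2 (adjusted p = 0.0148). For each of these probes the arrays of 1 group were enough for it to be tested, so nothing is read from their calls. The summed normalized signal of this list was 91.4, 112.3 and 93.2 after scramble siRNA, against 85.2, 91.2 and 81.0 after DJ-1 siRNA. Of the endothelial list (PECAM1, CDH5, KDR and TEK) 0 of 7 probes were tested.

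Markers of fibroblasts and fat cells were read in the same way. ADIPOQ and THY1 were not detected on any array and FABP4 on 1 scramble array, and 3 of 10 probes were tested, all of them called lower, beside 13.6% of all tested probes. The matrix proteoglycan gene decorin (DCN), the brightest of the list, fell on both tested probes, with log2 differences of -1.34 and -1.79 (standard errors 0.20 and 0.27, adjusted p of 0.00598 and 0.0058 from limma). The receptor gene PDGFRA was at -0.58 (standard error 0.18, adjusted p = 0.0493) and lost its call in 9 of 14 alternatives, among them every single array left out except DJ-1 siRNA replicate 2 (adjusted p up to 0.124). The summed normalized signal of the list was 7617, 7498 and 6311 after scramble siRNA, against 2843, 3688 and 2151 after DJ-1 siRNA. In bulk RNA fewer cells of a type and less RNA per cell cannot be told apart, and the part of these markers in the chemokine values was not tested. For the myoblast genes, PAX7 was not detected on any array, MYF5 was detected on 1 array of each group and not tested, MYOD1 fell by 0.90 log2 units (standard error 0.10, adjusted p = 0.00317) and CDH15 was at -0.31 (adjusted p = 0.0809, and 0.0405 without scramble replicate 1). Their 2 tested probes, of which that of CDH15 was the brighter, summed to 4525, 5438 and 4930 after scramble siRNA, against 3580, 3800 and 3769 after DJ-1 siRNA. Of the 9 tested probes of proliferation markers, 3 were called lower (of CCNB1, MCM5 and MCM3, the last detected on every scramble array and 1 knockdown array) and 0 higher by limma, beside 13.6% and 16.5% of all tested probes, where 3 were higher before adjustment at p under 0.05 and 1 in the unmoderated test. The scramble arrays of MCM3 were enough for it to be tested, so nothing is read from its call. CCNB1 lost its call without DJ-1 siRNA replicate 1 or 3 (adjusted p of 0.0585 and 0.0564). The median of the 9 probes was 0.20, with 4 below 0. The tested probes of MKI67 (0.47 and 0.20), TOP2A (0.25 and 0.23) and CDC2A (0.30) lay above 0 and were not called. With detection p under 0.01 required on all 6 arrays, 2 of 7 tested probes were called higher and 2 lower, beside 40.9% of all probes tested that way. The 9 probes, of which that of CDC2A was the brightest, summed to 5573, 6202 and 5622 after scramble siRNA, against 4957, 5695 and 5233 after DJ-1 siRNA.

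CXCL10, an interferon-inducible ligand of CXCR3 that draws T cells and natural killer cells, had the furthest separation. Its probe ILMN_3142803 had a signal of 636.4, 865.4 and 740.7 after scramble siRNA, against 231.3, 247.1 and 194.6 after DJ-1 siRNA. All 3 knockdown arrays lay far below all 3 scramble arrays, and all 6 were above background. Normalized signal on the log2 scale was 9.22 ± 0.28 (SD, n = 3) in scramble and 6.54 ± 0.20 (SD, n = 3) in *Dj1* knockdown myotubes, a log2 difference of -2.68 (standard error 0.17), or 15.6% of the scramble level. The size depends on the background correction, since the log2 difference was -1.69 without it. A second probe (ILMN_1214419) was not detected on any array and gives no fold.

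**Figure D1:**
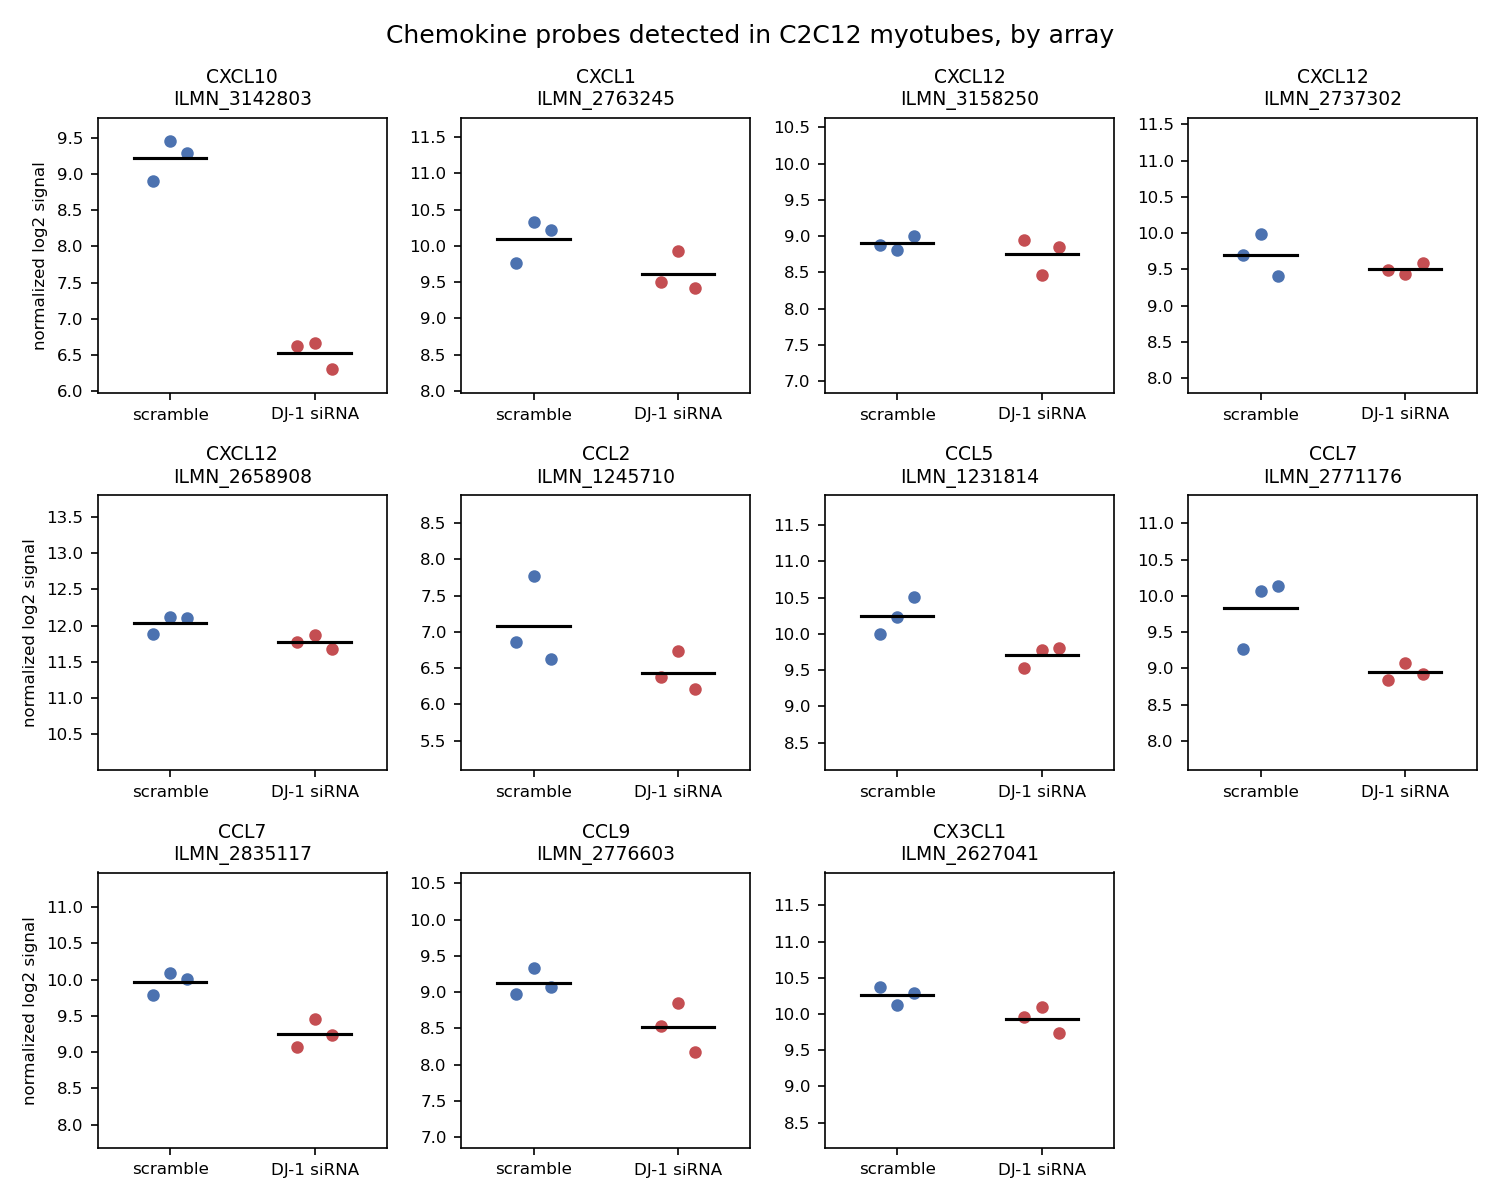
Normalized log2 signal (y axis) of the 11 chosen chemokine probes that were detected on at least 3 arrays, in scramble (blue) and DJ-1 siRNA (red) myotubes, 1 point per array, with bars at the group means and the same span of log2 units on each panel. CXCL10 separates furthest, with a log2 difference of -2.68, while the probes ILMN_3158250 and ILMN_2737302 of CXCL12 overlap.

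The 250 bases before the start of 5 of the 8 genes were read from RefSeq (GRCm38.p6), and those of CXCL10, CXCL1 and CXCL12 are shown because these are CXC ligands whose differences ran from far to near 0. The array file names no genome build. Capitals mark matches, on either strand, to the ISRE core GAAANNGAAA, the NF-kappaB (kB) consensus, the AP-1 motif TGANTCA and the TATA box TATAAA. CXCL10 lies at chr5:92348890-92349139 on the minus strand, CXCL1 at chr5:90890995-90891244 on the plus strand and CXCL12 at chr6:117168285-117168534 on the plus strand.
CXCL10: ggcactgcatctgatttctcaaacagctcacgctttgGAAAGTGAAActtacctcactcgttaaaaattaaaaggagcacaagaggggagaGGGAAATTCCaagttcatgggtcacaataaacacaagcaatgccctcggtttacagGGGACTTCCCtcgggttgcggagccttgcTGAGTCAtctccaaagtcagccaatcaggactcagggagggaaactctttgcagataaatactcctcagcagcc
CXCL1: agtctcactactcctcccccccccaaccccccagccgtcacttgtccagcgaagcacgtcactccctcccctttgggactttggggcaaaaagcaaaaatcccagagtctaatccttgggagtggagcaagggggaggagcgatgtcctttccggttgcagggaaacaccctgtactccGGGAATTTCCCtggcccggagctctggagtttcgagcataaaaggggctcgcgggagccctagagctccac
CXCL12: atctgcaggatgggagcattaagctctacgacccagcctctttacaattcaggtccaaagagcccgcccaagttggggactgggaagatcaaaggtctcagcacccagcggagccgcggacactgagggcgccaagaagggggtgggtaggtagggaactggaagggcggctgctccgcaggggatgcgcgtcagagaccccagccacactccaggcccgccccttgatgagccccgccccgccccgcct

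The CXCL10 stretch held 1 ISRE core beginning 213 bases before the start, 2 kB matches beginning 159 and 103 bases before it and 1 AP-1 match 74 bases before it. CXCL1 held 2 kB matches on opposite strands that overlap, 71 and 70 bases before the start, and CXCL12 held 0 matches to the 4 motifs. Of the others, CCL9 held 1 kB, 1 AP-1 and 3 TATA box matches, of which 2 overlap, and CX3CL1 held 1 TATA box match. Among 32851 promoters of the same length, 2.98% held the ISRE core, 3.90% the kB motif, 6.75% the AP-1 motif and 12.4% the TATA box. A match describes these letters and no binding was measured. The stretches shown were picked by their differences, so nothing is read from their matches beside those differences. Those of CCL2, CCL5 and CCL7 were not analysed here.

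CXCL1 is a neutrophil attractant that acts through CXCR2. Its probe had a signal of 1038, 1440 and 1277 after scramble siRNA, against 848.1, 1218 and 713.5 after DJ-1 siRNA. The groups overlapped, because DJ-1 siRNA replicate 2 lay above scramble replicate 1. Normalized log2 signal was 10.10 ± 0.30 and 9.62 ± 0.28 (SD, n = 3 each), a log2 difference of -0.48 (standard error 0.20).

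CXCL12, the ligand of CXCR4 that guides progenitor and muscle precursor cells, had 5 probes, of which 3 were detected on all arrays and 2 (ILMN_3078973 and ILMN_2746295) on none. The probe ILMN_2658908 had a signal of 3904, 4667 and 4373 after scramble siRNA, against 3670, 4358 and 3081 after DJ-1 siRNA. Its signals overlapped before normalization and did not afterwards, with a log2 difference of -0.26 (standard error 0.11). The probes ILMN_2737302 and ILMN_3158250 overlapped on either scale, at -0.19 (standard error 0.16) and -0.14 (standard error 0.15). The last of these was at 0.002 without DJ-1 siRNA replicate 2, so no direction is given for it, and ILMN_2737302 was at -0.05 without scramble replicate 2 and at -0.34 without scramble replicate 3. ILMN_2658908 was at -0.13 when background-corrected arrays were shifted to a common 75th percentile.

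The monocyte attractants CCL2 and CCL7, which both bind CCR2, lie near each other among the CC chemokine genes. CCL2 had a signal of 256.4, 369.8 and 223.3 after scramble siRNA, against 215.5, 251.4 and 190.0 after DJ-1 siRNA. Scramble replicate 2 stood above the rest and the other arrays overlapped, with a log2 difference of -0.65 (standard error 0.31). It was -0.30 without that array and -0.31 without background correction. CCL7 was read by a pair of probes. ILMN_2771176 had a signal of 779.9, 1236 and 1223 after scramble siRNA, against 585.4, 728.2 and 539.6 after DJ-1 siRNA, and ILMN_2835117 of 1053, 1246 and 1136 against 664.6, 905.2 and 637.7. On both probes the 3 knockdown arrays lay below the 3 scramble arrays. The log2 differences were -0.88 (standard error 0.24) and -0.71 (standard error 0.14), so the probes differed by less than the larger error.

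CCL5 attracts T cells and monocytes, and CCL9 acts through CCR1. CCL5 had a signal of 1188, 1366 and 1535 after scramble siRNA, against 862.6, 1103 and 895.0 after DJ-1 siRNA. CCL9 had a signal of 659.2, 801.6 and 659.7 after scramble siRNA, against 495.9, 640.2 and 369.4 after DJ-1 siRNA. The groups did not overlap for either gene, although DJ-1 siRNA replicate 2 came close to the lowest scramble array in signal. The log2 differences were -0.54 (standard error 0.16) for CCL5 and -0.61 (standard error 0.19) for CCL9, or 68.7% and 65.6% of the scramble level.

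CX3CL1, also called fractalkine, is made as a membrane-anchored protein that is shed by ADAM10 and ADAM17 and binds CX3CR1. Its signal was 1490, 1274 and 1338 after scramble siRNA, against 1130, 1357 and 859.4 after DJ-1 siRNA. Before normalization DJ-1 siRNA replicate 2 lay within the scramble arrays, and afterwards it lay just below them, at 10.10 against 10.13 on the log2 scale. The log2 difference was -0.33 (standard error 0.13).

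Ordered by log2 difference, the 11 detected probes ran from CXCL10 at -2.68 to the CXCL12 probe ILMN_3158250 at -0.14. CXCL10 lay apart from the next probe, CCL7 at -0.88, by more than either standard error, whereas neighbours from CCL7 onwards differed by no more than the larger of theirs. All 11 differences were below 0, although ILMN_3158250 was not without DJ-1 siRNA replicate 2, 4 probes were called lower, and for 7 the knockdown arrays lay below the scramble arrays. Over all 17890 tested probes 30.1% were called, 13.6% lower and 16.5% higher, and for 22% the knockdown arrays lay below the scramble arrays. Nothing is read from the members' counts, since this contrast was used in choosing them, and the called count was 1 without DJ-1 siRNA replicate 1 or 3 and 2 without scramble replicate 2 or 3.

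Within groups, the probes often had their highest and lowest values on the same arrays. Scramble replicate 2 was the highest scramble array on 7 of the 11 probes and replicate 1 the lowest on 7, and among the knockdown arrays replicate 2 was the highest on 8 and replicate 3 the lowest on 6. The standard error over beads was between 2.13% and 8.44% of the signal for these probes, with 22 to 57 beads per probe and array.

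The profile of CXCL10 over the 6 arrays was compared with that of every tested probe of another gene, each centred on its own mean. The 5 nearest by Euclidean distance were PES1 (0.305), a ribosome assembly factor gene, MEF2C (0.499), a muscle transcription factor gene, the protease gene ASPRV1 (0.502), TYKI (0.517), now named Cmpk2, a mitochondrial nucleotide kinase gene, and RSAD2 (0.543), which encodes the antiviral protein viperin. Their log2 differences ran from -2.90 for ASPRV1 to -2.51 for PES1 and their groups did not overlap. ASPRV1 was detected on 1 knockdown array, and was at -1.24 without background correction, where TYKI was at -1.52 and MEF2C at -1.72. With 6 arrays, likeness in profile mostly reflects the separation between the groups.

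**Figure D2:**
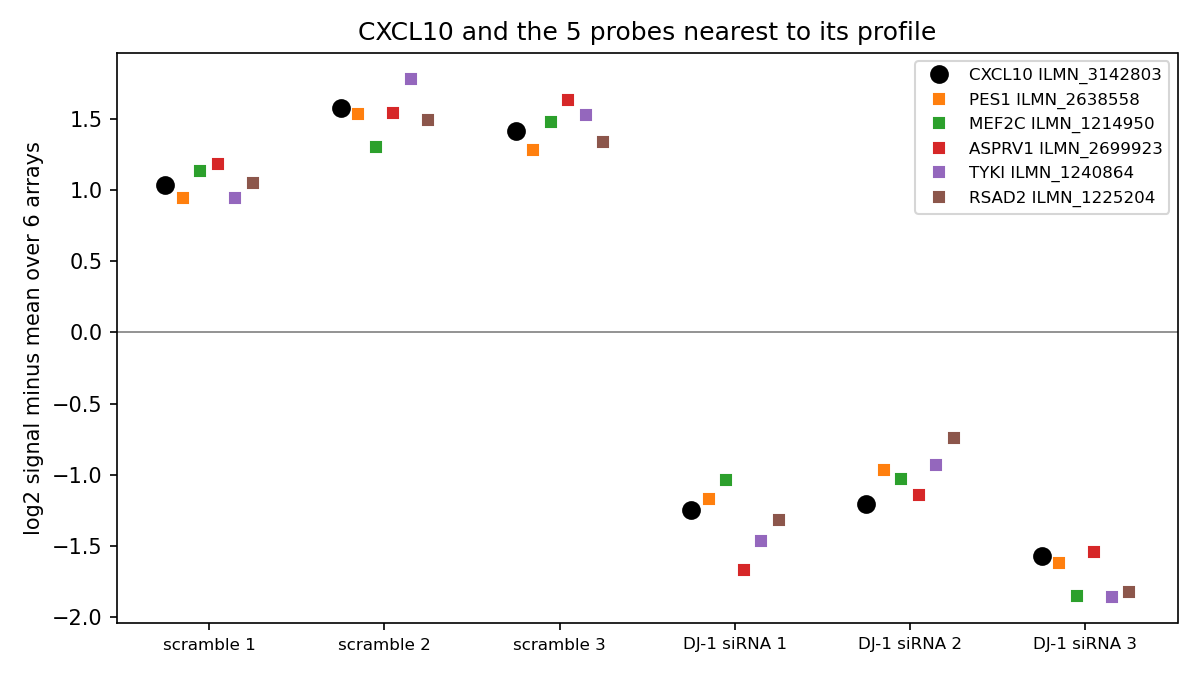
Log2 signal minus its mean over the 6 arrays (y axis) for CXCL10 (black circles) and the 5 probes nearest to it (coloured squares), by array. All lie above 0 on the scramble arrays and below 0 on the DJ-1 siRNA arrays.

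Chemokines outside the chosen genes were read from a list of 28, of which 27 had a row and 6 had a tested probe. All 8 tested probes had a log2 difference below 0, with 5 called lower and 0 called higher by limma (0 before adjustment at p under 0.05, and 0 in the unmoderated test), and the median was -1.27 against 0.05 over all tested probes, of which 30.1% were called, 13.6% lower and 16.5% higher. CXCL9, like CXCL10 a CXCR3 ligand, had a signal of 1371, 1255 and 1056 after scramble siRNA, against 383.1, 649.7 and 296.1 after DJ-1 siRNA. It fell by 1.91 log2 units (standard error 0.30, adjusted p = 0.00684 from limma), and the groups did not overlap. The transmembrane chemokine CXCL16, which binds CXCR6, fell by 0.88 (standard error 0.12, adjusted p = 0.00428), from 381.6, 413.2 and 391.3 to 273.6, 298.5 and 230.4 in signal.

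The eosinophil attractant CCL11 (eotaxin) and CXCL14 were close to background after knockdown. CCL11 was detected on every scramble array and on 2 of the knockdown arrays, and its fitted value fell by 1.66 log2 units (standard error 0.18). The CXCL14 probe ILMN_2760800 had a signal of 313.9, 384.2 and 401.5 after scramble siRNA, against 199.9, 176.5 and 149.5 after DJ-1 siRNA. It was detected on every scramble array and 1 knockdown array, so its fitted log2 difference of -2.32 (standard error 0.31) is not an exact size. The other CXCL14 probe, ILMN_2659426, was detected on the scramble arrays and on no knockdown array, with a signal of 225.1, 264.1 and 234.8 after scramble siRNA, against 161.5, 174.1 and 139.6 after DJ-1 siRNA. CCL25 (log2 differences of -0.72 and -0.26) and CXCL13 (-0.77) were not called, with adjusted p of 0.0516, 0.195 and 0.0966, although CXCL13 was called in 4 of 14 alternatives and ILMN_2661722 of CCL25 in 2 of 13. A probe that passed the detection filter by its scramble arrays alone is bound to be lower after knockdown, so nothing is read from the call of ILMN_2659426. Nor is anything read from the calls of ILMN_2760800 and CCL11, whose scramble arrays were enough to pass the filter. The count of 5 and the median include all of these probes. The median was -0.55 without background correction and, over all 38 probes with no filter, -0.07. Without background correction the log2 differences were smaller, down to -0.61 for CCL11, -1.01 for ILMN_2760800 and -0.51 for CXCL16, and the call of CXCL16 held.

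**Figure D3:**
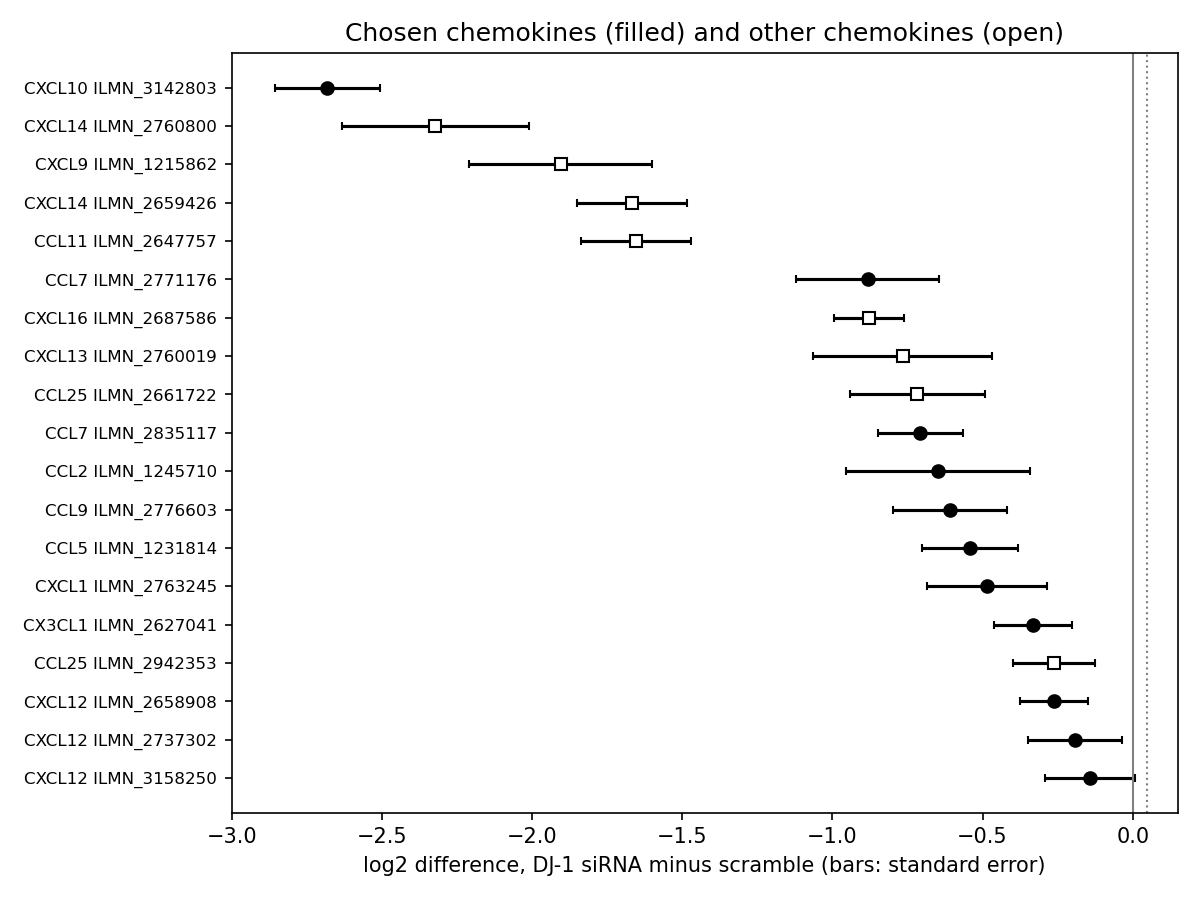
Log2 difference between DJ-1 siRNA and scramble myotubes (x axis) with its standard error, for the 11 detected probes of the chosen chemokines (filled) and the 8 tested probes of other chemokines (open). The solid line marks 0 and the dotted line the median over all tested probes, 0.05, and every point lies below 0, with ILMN_2659426 and ILMN_2760800 drawn at their fitted differences.

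Of 24 chemokine receptor genes, 5 had a tested probe, and the remaining probes were mostly at background, 22 of 33 being detected on no array. CXCR6, the receptor of CXCL16, had a signal of 214.3, 206.8 and 191.2 after scramble siRNA, against 151.9, 155.6 and 142.1 after DJ-1 siRNA. It was detected on every scramble array and on no knockdown array, so it passed the filter by its scramble arrays alone and nothing is read from its call. CXCR4, the CXCL12 receptor, was at -0.05 (standard error 0.12, adjusted p = 0.774), with a 95% interval from -0.32 to 0.22. The scavenger receptor genes CXCR7 and CCRL1 (now Ackr3 and Ackr4) were at 0.76 (adjusted p = 0.154) and 0.24 (adjusted p = 0.264). CXCR7, detected on 1 scramble array, was called when scramble replicate 2 was left out (adjusted p = 0.0182). Nothing is read from that call, since its knockdown arrays were enough for it to be tested. CCRL2 was detected on the knockdown arrays and on no scramble array, but its signals overlapped and it was not called, at 0.22 (adjusted p = 0.216). The median was 0.22 against 0.05 over all tested probes, with 1 of 5 probes (that of CXCR6) called lower and 0 higher by limma (0 before adjustment at p under 0.05, and 0 in the unmoderated test). Of all tested probes 30.1% were called, 13.6% lower and 16.5% higher. The median of the receptor list was 0.07 without background correction, 0.08 without scramble replicate 2 and -0.04 over all 33 probes with no filter, so no direction is given for the list.

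Receptors and sensors that can switch on chemokine genes had 21 tested probes of 14 genes, of which 4 were called lower and 1 higher, with a median of -0.06, which was -0.15 without scramble replicate 1. Over all tested probes 30.1% were called, 13.6% lower and 16.5% higher, and nothing is read from the count of 5. The log2 differences of the called lower probes were -0.86 for the cytokine gene IL6 and -0.44 for IL1B (adjusted p of 0.0152 and 0.0454 from limma), -0.66 for the RNA sensor gene DDX58, or RIG-I (adjusted p = 0.00604), and -0.46 for the Toll-like receptor gene TLR2 (adjusted p = 0.0259). The tumour necrosis factor receptor gene TNFRSF1A rose by 0.75 on ILMN_1241228 (adjusted p = 0.0167), while its other 2 tested probes were not called, at 0.46 and 0.39 (adjusted p of 0.0651 and 0.157), and were called without scramble replicate 3 (adjusted p = 0.0445) and without DJ-1 siRNA replicate 2 (adjusted p = 0.0454). The call of DDX58 held in all 14 alternatives and that of IL6 in all but the unmoderated test, while without background correction the log2 difference was smaller, down to -0.41 for IL6, -0.43 for DDX58 and 0.37 for ILMN_1241228. With 1 array left out, IL1B lost its call for every array but scramble replicate 1 (adjusted p up to 0.145), TLR2 for scramble replicate 2 and DJ-1 siRNA replicates 1 and 3 (up to 0.0834), and TNFRSF1A for DJ-1 siRNA replicates 1 and 3 (up to 0.0596). The count of 5 was 2 without either of these DJ-1 siRNA replicates and 3 without scramble replicate 2.

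Transcription factors that act on chemokine promoters had 33 tested probes of 20 genes, with 7 called lower, 2 called higher and a median of -0.28, which was -0.12 without scramble replicate 3. Over all tested probes 30.1% were called, 13.6% lower and 16.5% higher. Without background correction 14 of the 33 were called, and 14 of 31 with detection p under 0.01 on all 6 arrays, beside 35.2% and 40.9% of all, so nothing is read from the count. The lower probes included those of the interferon signalling factors STAT2, which fell by 0.89 log2 units (adjusted p = 0.00839 from limma), and IRF9, which fell by 0.72 (adjusted p = 0.0115). The other IRF9 probe was not called, at -0.44 (adjusted p = 0.198, and 0.00941 without scramble replicate 1). CEBPD rose by 1.00 (standard error 0.17, adjusted p = 0.00733) and 1 of 3 probes of STAT3 was called higher, at 0.46 (adjusted p = 0.0354), while the others were at 0.45 and 0.19 (adjusted p of 0.0622 and 0.604), the former called without DJ-1 siRNA replicate 2 (adjusted p = 0.0317). The calls of STAT2, CEBPD and the called IRF9 probe held in all 14 alternatives, and that of STAT3 was lost in 8, among them every single array left out except DJ-1 siRNA replicate 2 (adjusted p up to 0.102). The count of 9 was 5 without DJ-1 siRNA replicate 1.

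Factors that set the half-life of chemokine mRNA had 11 tested probes of 8 genes, with 3 called higher, 0 called lower by limma (1 before adjustment at p under 0.05, and 0 in the unmoderated test) and a median of 0.18. Over all tested probes 30.1% were called, and 16.5% were called higher. Without background correction and with a trend in the prior variance 5 of the 11 were called, beside 35.2% and 36.2% of all, so nothing is read from the count. ZFP36L1, which promotes decay of AU-rich mRNAs, rose by 0.44 on ILMN_1247853 (adjusted p = 0.019 from limma), while ILMN_2427108 (adjusted p = 0.0376) was detected on 1 scramble array and ILMN_2780424 was not called, at 0.28 (adjusted p = 0.0683). The knockdown arrays of ILMN_2427108 were enough for it to be tested, so nothing is read from its call. The kinase gene MAPKAPK2 rose by 0.31 (adjusted p = 0.0391). None of these 3 calls held without scramble replicate 2, DJ-1 siRNA replicate 1 or DJ-1 siRNA replicate 3 (adjusted p up to 0.0745 for ILMN_1247853, 0.0978 for ILMN_2427108 and 0.142 for MAPKAPK2), so that 0 probes were then called, and 1 was without scramble replicate 3 or DJ-1 siRNA replicate 2. With the replicate number as a block 1 of them was left.

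Genes that shed, trim or present chemokines at the cell surface had 19 tested probes of 15 genes, with 5 called lower, 3 called higher and a median of 0.03, which was -0.06 without scramble replicate 3 and -0.04 without DJ-1 siRNA replicate 2. Over all tested probes 30.1% were called, 13.6% lower and 16.5% higher. The heparan sulphate 2-O-sulphotransferase gene HS2ST1 rose by 0.73 and 0.88 on its probes (adjusted p of 0.00745 and 0.00343 from limma), and the heparan sulphate N-sulphotransferase gene NDST1 had log2 differences of -0.46, -0.41 and -0.48 (adjusted p of 0.0213, 0.0283 and 0.0126). MMP14, a membrane protease, fell by 0.66 (adjusted p = 0.00797), and the proteoglycan core gene SDC3 rose by 0.42 (adjusted p = 0.0345), a call lost whichever array was left out (adjusted p up to 0.105). The calls of HS2ST1 and MMP14 held in all 14 alternatives, and those of all 3 NDST1 probes were lost without DJ-1 siRNA replicate 1 (adjusted p of 0.0863, 0.0564 and 0.0502). The NDST1 probe at -0.46 also lost its call without scramble replicate 2 or 3 or DJ-1 siRNA replicate 2. That at -0.41 lost it for every array left out but scramble replicate 1 (adjusted p up to 0.0906). Without scramble replicates 2 and 3 and DJ-1 siRNA replicates 1, 2 and 3 in turn the list had 4, 5, 3, 4 and 5 called probes in place of 8.

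**Figure D4:**
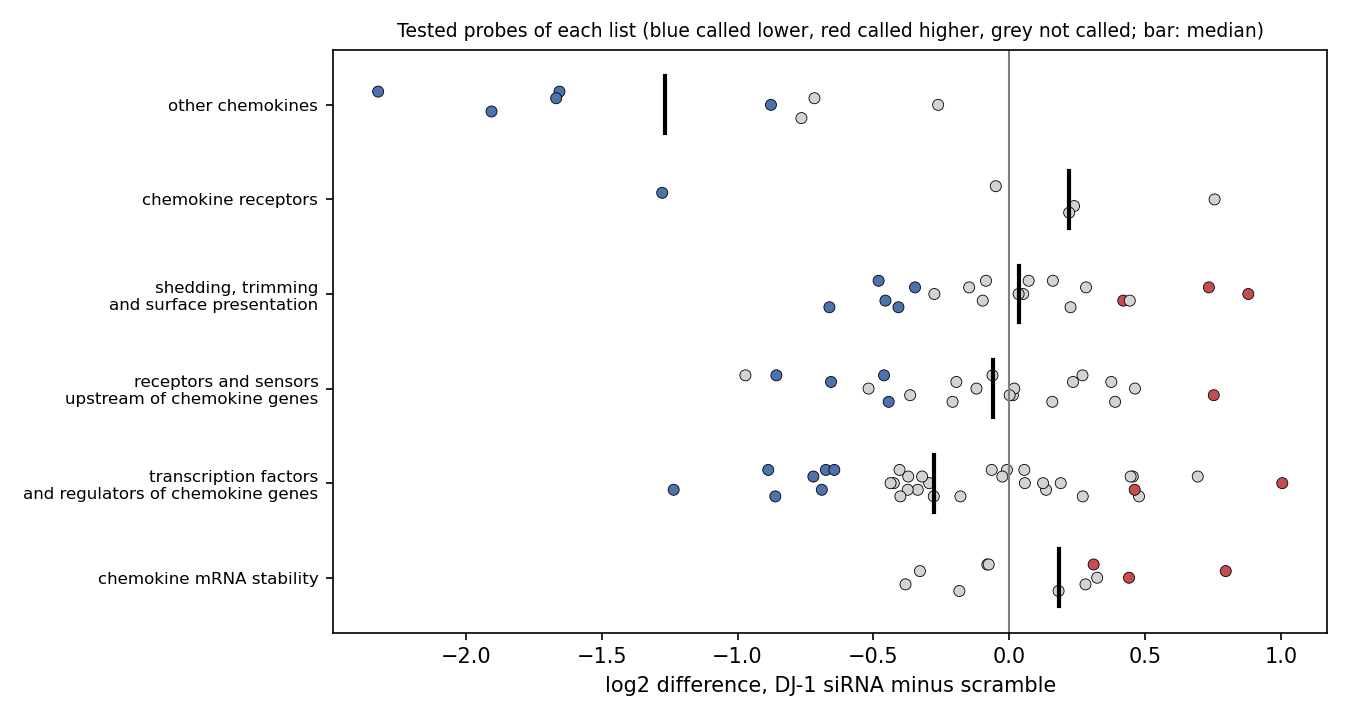
Log2 difference between DJ-1 siRNA and scramble myotubes (x axis) for each tested probe of the 6 lists, blue where called lower, red where called higher and grey where not called, with bars at the list medians. The 8 tested probes of the other chemokines lie below 0, and the receptor list has 1 called probe.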

How the data were processed

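RNA of the 6 samples was hybridized to Illumina mouse arrays. For every probe and array the authors deposited a detection p-value and the mean bead intensity, with its bead count and standard error, neither normalized nor corrected for background (GSGX 1.9.0 per the file headers). Background was corrected by normexp with an offset of 16 and arrays were quantile normalized on the log2 scale (neqc, limma 3.58.1, R 4.3.3). Probes detected at p under 0.05 on 3 or more arrays (17890) were fitted with lmFit and eBayes, each probe separately, and p was adjusted by Benjamini-Hochberg over all of them (threshold 0.05). The fit was tested on simulated data. The number of arrays limits the precision. RefSeq (GRCm38.p6) matched 32345 probes by Entrez number or accession, all 14 chemokine probes among them.

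The members and lists were chosen with earlier results of these data known. Named are all member probes, PARK7, any gene of the other-chemokine, receptor and marker lists, in further lists up to 4 called probes per direction of largest difference without overlap (with none called, the 3 of highest signal), and the 5 probes nearest to CXCL10. Not every probe that this names is printed. Further probes of TNFRSF1A, IRF9, STAT3 and ZFP36L1 were named after their values were seen. The alternatives were no background correction (floor of 1), a 75th percentile shift with and without it, no filter, detection p under 0.01 on all 6 arrays, a prior variance trend, an unmoderated test, a replicate block, each array left out and the mean of a member gene's probes.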

Additional observations from a re-analysis of the deposited data

How the results depend on the processing

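PARK7 was called in all 14 alternatives, between -1.24 and -1.003 on the log2 scale (adjusted p up to 0.0206). The number of called probes was 3519 with no filter, where more probes were tested, and between 2559 (without DJ-1 siRNA replicate 1) and 5271 with each array left out. Leaving out DJ-1 siRNA replicate 3 gave 2712. Of the chosen chemokine probes, 7 were called without background correction (35.2% of all tested probes), 8 with the trend in the prior variance (36.2%), 2 with no filter (7.77%), 2 with the unmoderated test (20.5%), and 1 to 5 with each array left out (14.3% to 29.5%). Nothing is read from these, since the contrast was used in choosing the genes. The strict filter left 2 called probes of other chemokines and 0 of receptors, since CCL11, CXCL14 and CXCR6 were not tested under it, and with each array left out the receptors had 1 to 2. With no filter 5 probes of the surface list, 3 of the upstream list and 1 of the mRNA stability list were called. The unmoderated test left 2 of the upstream list. Without background correction 14 of 33 transcription factor probes and 5 of 11 mRNA stability probes were called, beside 35.2% of all tested probes. With the strict filter 14 of 31 transcription factor probes were called, beside 40.9% of all probes tested under it. With the trend 5 of 11 mRNA stability probes were called, beside 36.2% of all. With each array left out the counts were 3 to 6 for the surface list, 2 to 7 for the upstream list, 5 to 10 for the transcription factors and 0 to 2 for mRNA stability. Fewer arrays were compared there, and the cause of the other changes was not tested. CXCL10 was at -1.69 and -1.68 without background correction, by quantile normalization and the 75th percentile shift. With the mean of its probes CXCL12 was at -0.20 and CCL7 at -0.79.

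The labels do not state whether replicate numbers pair the arrays, and the main fit did not pair them. Median signal was nearest between same-numbered arrays. Deviations of same-numbered arrays correlated at 0.0537, 0.0474 and 0.0199, each the highest for its array, which is a hint from the data and not from the design. With the replicate block 4350 of 17890 tested probes were called (24.3%), among them 5 of the 19 of the surface list and 1 of the 11 of the mRNA stability list.

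Of 1883 values of 136 listed or named probes under the alternatives, 133 lost a call, 75 gained one and 0 reversed a called direction. Signal near background limits the size of the differences of CCL11, CXCL14 and CXCR6.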
